A study of Mus musculus with 2 samples.

Results

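The interferon regulatory factors (IRFs) were examined in granulocyte-monocyte progenitors (GMPs), the bone marrow cells from which granulocytes, monocytes and part of the dendritic cells arise. The members were the 8 rows with the symbols Irf1, Irf2, Irf3, Irf4, Irf5, Irf7, Irf8 and Irf9, of 24421 gene symbols measured. Bulk RNA-seq was available for 1 library of GMPs from non-tumor-bearing mice (NTB-GMP, the control) and 1 library of GMPs from mice with 4T1 tumors in the mammary gland (4T1-GMP). 4T1 is a mouse mammary carcinoma line, and the title of the series places the question at the control of myeloid-derived suppressor cell production by IRF8. Both libraries came from total RNA of flow-purified GMPs from the marrow of female mice on an F1 semi-syngeneic (H-2b/d) background, so the tumor was the labelled difference between them. The study's methods state an age range for its mice as a whole, and the age, the time after implantation and the number of mice were not stated for these libraries. With 1 library per group no test of the conditions was possible, and every interval below covers counting error in these libraries only, since PCR reads without molecular identifiers are not independent molecules.

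IRFs share a DNA-binding domain that recognizes GAAA repeats, as in the interferon-stimulated response element. Irf3, Irf5 and Irf7 are latent factors that kinases activate downstream of pathogen sensors, Irf9 carries the type I interferon signal, and Irf1 and Irf2 compete for shared targets, the first as an activator and the second mostly as a repressor. Irf8 acts with Spi1 (PU.1) and directs GMPs to monocytes and dendritic cells at the expense of granulocytes, and its loss in mice leads to an excess of neutrophils. Irf4, its closest relative, serves mainly in lymphocytes and some dendritic cells.

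The 7 members with enough reads to compare were lower in 4T1-GMP than in NTB-GMP, by amounts that ran from 7.18-fold for Irf8 to 1.09-fold for Irf3, whose interval included no change. Irf4 had too few reads. Levels are given as RPKM, reads scaled to gene length and library size, which allows genes of different length to be set side by side. Ratios are log2(RPKM + 0.1) of 4T1-GMP over NTB-GMP, given where the mean RPKM of both libraries reached 1, which held for 10378 genes and 7 of the 8 members. Of these 7, Irf8, Irf5 and Irf2 were lower by at least 2-fold and 0 were higher by that much, whereas 4.92% of all 10378 genes were lower and 3.25% were higher by at least 2-fold. The interval of Irf2 (-1.41 to -0.78) reached above the 2-fold limit of -1. A lower value of any size was found for 45.3% of the genes, and for 60.8% with library sizes taken without the ribosomal RNA Rn45s. The median log2 ratio was -0.91 over the 7 members and 0.05 over all genes. The members' values were not spread evenly: the plot of log2 ratios shows Irf8 and Irf5 well apart from Irf1 and Irf3.

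**Figure D1:**
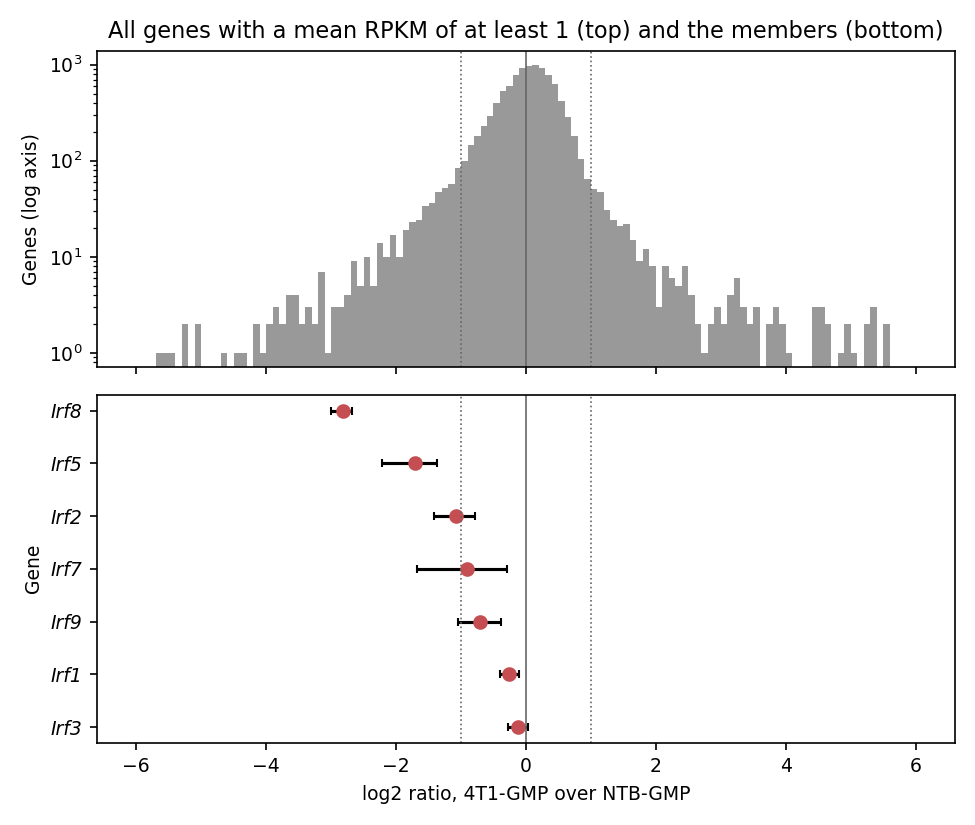
Log2 ratio of 4T1-GMP over NTB-GMP (x axis) for the 10378 genes whose mean RPKM reached 1 (top, number of genes per 0.1 on a log axis) and for the 7 members that reach it (bottom, points). Bars are 95% Clopper-Pearson intervals on the reads and dotted lines mark 2-fold. The points run from -2.82 for Irf8 to -0.12 for Irf3, all left of 0.

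Irf8, the lineage factor of the family, stood at 32.0 RPKM in NTB-GMP, from 1117 reads, and at 4.45 RPKM in 4T1-GMP, from 459 reads of a library 2.95 times as deep. It was the highest of the 8 members in the control library. In the library from tumor-bearing mice it was the fifth by value, with an interval that overlapped those of Irf2 and Irf9. Its log2 ratio was -2.82 (95% CI of the RPKM ratio -3.0 to -2.68), which left 13.9% of the control level. Only 50 of the 10378 genes (0.482%) had a lower ratio. In these bulk libraries, fewer cells that transcribe a gene and less of its RNA per cell cannot be told apart.

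**Figure D2:**
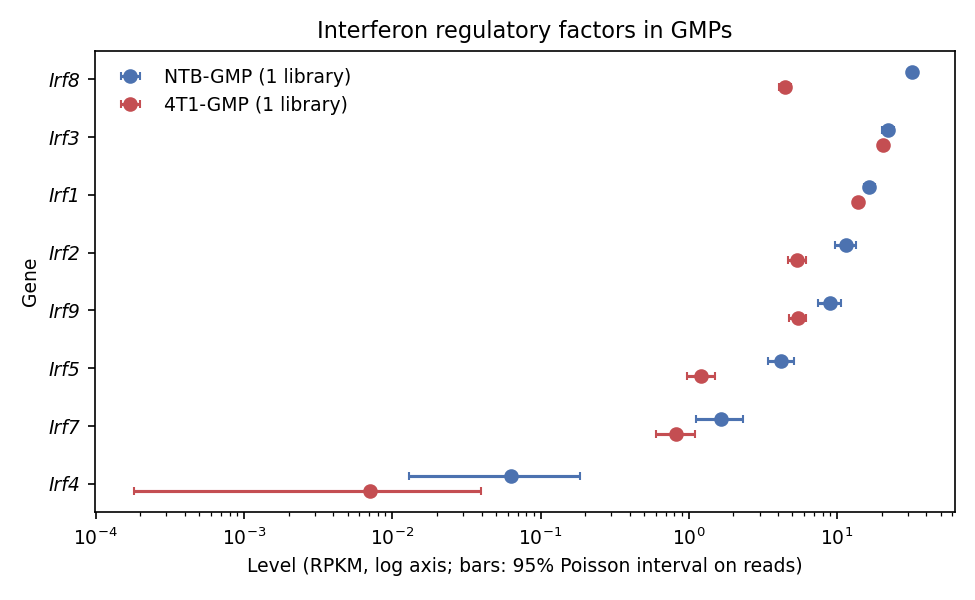
Level of each member in RPKM (log axis) in NTB-GMP (blue) and 4T1-GMP (red), with 1 library each and 95% exact Poisson intervals on the reads as bars. Irf8 goes from 32.0 to 4.45 RPKM, while the points of Irf3 and Irf1 lie side by side.

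Other well-measured genes with a ratio near that of Irf8 were few. Among the 5903 whose mean RPKM reached 10, 12 had a lower ratio, and the 5 nearest to it outside the family were Snord15b (-2.79), Ear1 (-2.76), Dusp28 (-2.92), Gm20594 (-2.63) and Cd74 (-3.10). Ear1 encodes an eosinophil-associated ribonuclease and Cd74 the invariant chain of MHC class II. The likeness rests on 1 ratio from 2 libraries. Irf8 lies at chr8:120736358-120756694 on the plus strand (GRCm38, GENCODE M21) and shares no exon with another gene. Its nearest neighbours with a mean RPKM of at least 1 were Cox4i1, 62.2 kb before it, with a log2 ratio of 0.17, and Mthfsd, 335 kb after it, with -0.08. The first encodes a subunit of cytochrome oxidase, and both ratios were near 0.

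The promoters of Irf8, Irf1 and Irf2 are shown because each holds a gamma-activated site (GAS), the element bound by STAT dimers after interferon-gamma and other cytokines, and because the ratios of these 3 genes differed widely. The GAS was searched as TTCNNNGAA, which reads the same on both strands, in RefSeq windows on GRCm38.p6 of 250 bases before to 50 bases after each start. All 8 members had a window, 11 in all, and the capitals mark the matches.
Irf8: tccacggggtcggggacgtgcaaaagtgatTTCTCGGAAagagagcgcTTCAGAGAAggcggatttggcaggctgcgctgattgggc
Irf1: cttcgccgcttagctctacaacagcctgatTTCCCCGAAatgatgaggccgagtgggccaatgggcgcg
Irf2: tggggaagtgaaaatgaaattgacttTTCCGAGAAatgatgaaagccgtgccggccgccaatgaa
The windows are chr8:120736157-120736243 for Irf8, chr11:53769894-53769962 for Irf1 and chr8:46739495-46739559 for Irf2, all on the plus strand and upstream of the start. Irf8 had 2 matches, 9 bases apart, which begin 171 and 153 bases before the start. The match of Irf1 begins 90 bases and that of Irf2 224 bases before it.

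Of all 32851 windows in the table, 8.30% held a GAS match. The window of Irf2 was also the only one of the 11 with a match to an IRF site (GAAANNGAA, in 8.56% of all windows), to an ETS-IRF site (GGAANNGAA, 8.24%) or to a C/EBP site (TTGCNNAA, 10.8%), each searched on both strands. Its IRF match, GAAAATGAA, overlaps its ETS-IRF match, GGAAGTGAA, and both stand before the GAS in the sequence above. The windows of Irf3, Irf4, Irf5, Irf7 and Irf9 held none of these letters. A match is a description of the sequence, and the members with a GAS ranged in log2 ratio from -0.25 to -2.82.

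Irf4 was close to absent, at 0.0629 RPKM (3 reads) in NTB-GMP and 0.00711 RPKM (1 read) in 4T1-GMP. Both were at or under the limit of 3 reads, so no fold is given. It was the only member below 0.1 RPKM in either library.

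Among the latent factors the ratios were unequal. Irf3, which turns on type I interferon genes after viral sensing, stood at 22.1 RPKM in NTB-GMP and 20.3 in 4T1-GMP (493 and 1336 reads). Its log2 ratio of -0.12 had an interval that included 0 (-0.27 to 0.03), so no difference was detected with the deposited library sizes. With library sizes taken without Rn45s its log2 ratio was -0.28, outside that interval. Irf5, which acts below Toll-like receptors and drives inflammatory cytokines, stood at 4.19 and 1.21 RPKM (102 and 87 reads), a log2 ratio of -1.71 (95% CI -2.22 to -1.36). Irf7, the amplifier of the type I response and itself interferon-inducible, stood at 1.64 and 0.824 RPKM (31 and 46 reads), a log2 ratio of -0.91 (95% CI -1.68 to -0.28). The control level of Irf3 was above those of Irf5 and Irf7, and Irf5 and Irf7 had the fewest recovered reads among the 7 members.

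Exons of 5 members overlap those of another gene, and whether the libraries kept the strand of the RNA was not given in the sources used here. For Irf5 the longest shared stretch was 411 bases with Tnpo3 on the opposite strand, and Tnpo3 itself had a log2 ratio of 0.23. Irf7 shares 45 bases with Phrf1, Irf3 88 bases with Bcl2l12 and Irf1 135 bases with Gm17334, each on the opposite strand, and Irf9 shares 123 bases with Rnf31 on its own strand. Reads from these stretches cannot be assigned with certainty. Irf2, Irf4 and Irf8 share none. On GRCm38 (GENCODE M21) the genes lie at chr11:53770014-53778374 (Irf1), chr8:46739732-46847458 (Irf2), chr7:44997648-45002848 (Irf3), chr13:30749226-30766976 (Irf4), chr6:29526625-29541871 (Irf5), chr7:141262706-141266481 (Irf7) and chr14:55603571-55610030 (Irf9). Irf7 is on the minus strand and the others are on the plus strand. Irf2 and Irf8 share chromosome 8, and Irf3 and Irf7 share chromosome 7.

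Irf9, the DNA-binding subunit of the complex ISGF3, stood at 8.92 RPKM in NTB-GMP and 5.43 in 4T1-GMP (122 and 219 reads), a log2 ratio of -0.71 (95% CI -1.04 to -0.38). Stat2, a partner in that complex, was at 7.67 and 6.82 RPKM, so that the ratio of Irf9 to Stat2 within a library went from 1.16 to 0.796. This ratio was chosen after its values were seen.

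Irf1 and Irf2, the activator and its antagonist at shared sites, did not move in parallel. Irf1 stood at 16.5 RPKM in NTB-GMP and 13.8 in 4T1-GMP (564 and 1393 reads), a log2 ratio of -0.25 (95% CI -0.40 to -0.11). Irf2 stood at 11.5 and 5.36 RPKM (145 and 200 reads), a log2 ratio of -1.08 (95% CI -1.41 to -0.78). The 2 intervals did not overlap, and the ratio of Irf1 to Irf2, which is independent of library size, was 1.44 in NTB-GMP and 2.57 in 4T1-GMP.

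The order of the members by level differed between the libraries. In NTB-GMP it ran Irf8, Irf3, Irf1, Irf2, Irf9, Irf5, Irf7 and Irf4, and the only neighbours with overlapping intervals were Irf2 and Irf9. In 4T1-GMP it ran Irf3, Irf1, Irf9, Irf2, Irf8, Irf5, Irf7 and Irf4. There the intervals of Irf9, Irf2 and Irf8 all overlapped each other, and those of Irf5 and Irf7 overlapped. The recovered reads are lower bounds, for Irf2 and Irf9 among others, so an overlap can come from intervals that are too wide.

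The summed level of the 8 members went from 96.8 RPKM in NTB-GMP to 51.4 RPKM in 4T1-GMP, a log2 ratio of -0.91. Without Irf8 the sum went from 64.9 to 47.0 RPKM, a log2 ratio of -0.47. Irf8 made up 33% of the family's RPKM in the control library and 8.66% in the library from tumor-bearing mice. The share of Irf3 went from 22.8% to 39.5% and that of Irf1 from 17.0% to 26.9%, of a smaller total. The other 5 members each took at most 11.8% in either library.

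**Figure D3:**
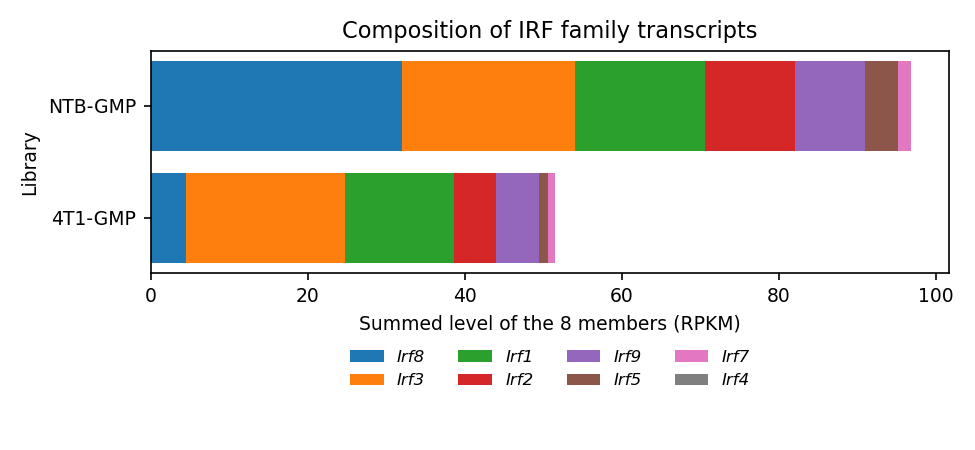
Summed RPKM of the 8 members in each library (x axis), split by member in the order of the control library. The total goes from 96.8 to 51.4 RPKM, and most of the loss is the Irf8 segment, while the Irf3 and Irf1 segments keep nearly their length.

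Ratios within a library set Irf8 against other regulators of GMP fate without use of the library sizes. Irf8 over Spi1, its DNA-binding partner, was 0.50 in NTB-GMP and 0.0494 in 4T1-GMP. Irf8 over Cebpa, a factor needed to form GMPs, was 0.700 and 0.125, and Irf8 over Gfi1, a repressor that favours granulocytes, was 0.710 and 0.0539. Against Irf3 in its own family it was 1.44 and 0.219. These ratios, too, were chosen after their values were seen.

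The genes beside the members on the chromosomes were read as a local comparison, chosen after values were seen. For each of the 8 members the nearest gene with a mean RPKM of at least 1 was taken on either side, which gave 16 genes. Of these, 0 were lower or higher by at least 2-fold, and their median log2 ratio was -0.11. The highest was Uqcrfs1, beside Irf4, at 0.56. Irf5 lay between Atp6v1f at 0.39 and Tnpo3 at 0.23.

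The pathway around the family was described from 6 lists, each by its counts and its median beside the 4.92% lower, 3.25% higher and median of 0.05 over all genes. Of 12 interferon receptors and signal transducers, 10 reached a mean RPKM of 1, 0 passed 2-fold in either direction, and the median was -0.05 (-0.22 without Rn45s). The highest were Ifngr1, the ligand-binding chain of the interferon-gamma receptor (153 and 218 RPKM, 0.52), Stat3 (0.42) and Ifngr2 (0.20). The lowest were Ifnar1, a chain of the type I receptor (8.94 and 7.31 RPKM, -0.29), Jak2 (-0.20) and Stat2 (-0.17).

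Of 19 sensors, adaptors and kinases that activate IRFs, 15 were measured at this level, with 0 lower and 2 higher by at least 2-fold and a median of 0.05, whose sign depended on the scaling. The 2 were Myd88, the adaptor of most Toll-like receptors (9.69 and 26.1 RPKM, 1.42), and Tlr4, the receptor for endotoxin (6.51 and 16.4 RPKM, 1.32), followed by Chuk (0.49). The lowest were Mavs, the mitochondrial adaptor of RNA sensing (6.93 and 4.52 RPKM, -0.60), Ddx58, the sensor RIG-I (5.27 and 3.71 RPKM, -0.49), and Tmem173, the adaptor STING (-0.18). Irf5 and Irf7 were thus lower in the library in which Myd88, the adaptor above them, was higher.

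Of 14 partners and IRF2-binding corepressors, 10 were measured, with 2 lower and 0 higher by at least 2-fold and a median of -0.37 (-0.53 without Rn45s). The lower ones were the AP-1 subunits Jun (44.1 and 11.7 RPKM, -1.91) and Jund (10.1 and 4.09 RPKM, -1.29), then Etv6, a repressor of the ETS family (-0.66). The highest were Junb (0.70), Spi1 (63.9 and 90.1 RPKM, 0.50) and Batf (0.45), the last an AP-1 factor that pairs with Irf4 or Irf8 at composite sites. Spi1 and Irf8, which bind together, thus had ratios of opposite sign.

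Of 13 receptors and factors known to act on Irf8 or against it, all 13 were measured, with 1 lower and 1 higher by at least 2-fold and a median of 0.42 (0.24 after quantile normalization and 0.25 without Rn45s). Runx1, a core factor of blood cell formation, was at 26.4 and 11 RPKM (-1.26), followed by Csf2rb2 (-0.47) and Stat5b (-0.45). Csf3r, the receptor for G-CSF, was at 43.2 and 92.2 RPKM (1.09), followed by Gfi1 (45 and 82.7 RPKM, 0.88) and Csf2rb (26.0 and 46.7 RPKM, 0.85). Csf3r was at 0.93 without Rn45s.

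Of 18 genes of monocytes and dendritic cells known to need Irf8, 11 were measured, with 3 lower and 1 higher by at least 2-fold and a median of -0.81. Over the alternatives this median ran from -0.63 with a pseudocount of 1 to -0.97 without Rn45s. The lower ones were Ly86, a partner of a Toll-like receptor homolog (9.56 and 0.969 RPKM, -3.18), Cd74 (42.3 and 4.85 RPKM, -3.10) and Cx3cr1, the fractalkine receptor (3.72 and 0.994 RPKM, -1.80). The higher one was Cybb, a subunit of the phagocyte NADPH oxidase also made by neutrophils (5.71 and 27.9 RPKM, 2.27). Cst3, which encodes cystatin C, was at -0.16. Klf4, a monocyte factor downstream of Irf8, did not reach the minimum and was at 1.48 and 0.120 RPKM, from 46 and 11 reads. Ciita, the master regulator of MHC class II, was likewise below it at 1.1 and 0.122 RPKM. Both were named after their values were seen.

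Of 36 interferon-stimulated genes, 23 were measured, with 2 lower and 0 higher by at least 2-fold and a median of -0.28 (-0.45 without Rn45s). The lowest were Cmpk2, a mitochondrial nucleotide kinase (3.20 and 0.627 RPKM, -2.18), Ifi203 (14.8 and 4.80 RPKM, -1.60) and Gbp2, a guanylate-binding GTPase (-0.89). The highest were Oas1a (7.18 and 9.65 RPKM, 0.42), Ifit2 (0.41) and Oasl1 (0.30), the last from at least 3 and 11 reads. Cmpk2 and Ifi203 stood apart from the other 21 measured genes, which lay between -0.89 and 0.42. Genes below the minimum were not all near 0. Mx2 (-2.37), Usp18 (-2.33), Rtp4 (-2.01), Oasl2 (-1.89) and Mx1 (-1.80) were lower there, with intervals below 0. So were Zbp1 (-1.54), Ifi44 (-1.46), Rsad2 (-1.02) and Ifi204 (-0.83). In 4T1-GMP, Mx2 and Usp18 rested on at least 1 read each and Rsad2 on at least 3. Oas2 (0.37), Oas3 (0.28) and Ifit1 (0.45) were higher, with intervals that included 0. They were named after their values were seen. With no minimum RPKM the median of the list was -0.30.

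**Figure D4:**
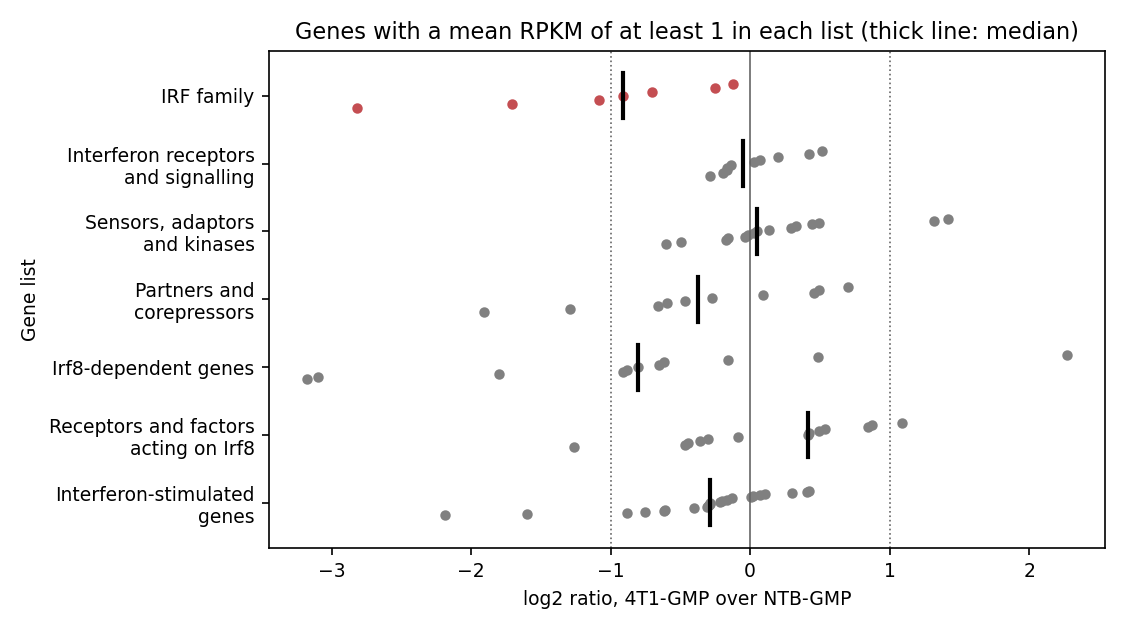
Log2 ratio of 4T1-GMP over NTB-GMP (x axis) for each gene of mean RPKM 1 or more in the IRF family (red, 7 genes) and in 6 lists (grey). Thick lines are medians, at -0.91 for the family, -0.05, 0.05, -0.37, -0.81, 0.42 and -0.28 for the lists from top to bottom, and dotted lines mark 2-fold. With library sizes taken without Rn45s the median of the sensors is -0.11.

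Markers of the sorted cells and of other cell types also differed between the libraries. All 11 GMP markers were measured, with 4 lower and 7 higher and a median log2 ratio of 0.45. By at least 2-fold, 1 was lower (Cd34, 154 and 59.4 RPKM) and 3 were higher (Ms4a3, Prtn3 and Ctsg). Of the other surface markers in this list, Kit (78.5 and 49.1 RPKM) and Fcgr3 (53.1 and 28.6) were lower and Fcgr2b (47.3 and 64.6) was higher. The sum of the 11 GMP markers was 10706 RPKM in NTB-GMP and 16408 in 4T1-GMP. Higher values of the granule genes Elane (1853 and 2935 RPKM), Prtn3 (1399 and 3311) and Ctsg (1388 and 2998) made up much of the difference. Of 14 genes of maturing neutrophils, 13 were measured and 12 were higher by at least 2-fold (sum 521 and 4084 RPKM). Of 10 monocyte markers 7 were measured and 6 were lower, 4 of them by at least 2-fold (sum 202 and 115 RPKM). All 3 measured of 10 dendritic cell markers were lower by at least 2-fold (sum 60.3 and 6.94 RPKM). All 7 basophil, mast cell and eosinophil markers were lower, 6 of them by at least 2-fold (sum 1805 and 636 RPKM). Over all genes 4.92% were lower and 3.25% higher by at least 2-fold. Among defining markers Cd209a, Cd3g and Epcam were listed at 0 in both libraries, Fcgr1 in NTB-GMP, and Ms4a1 and Pax5 in 4T1-GMP. B cell markers summed to 15.7 and 12.7 RPKM, nearly all Cd79b, T and NK cell markers to 191 and 338 RPKM, nearly all Nkg7, erythroid markers to 9.16 and 1.25, megakaryocyte markers to 15 and 5.71, stem and early progenitor markers to 32.6 and 18.4, and epithelial markers to 18.3 and 10.1 RPKM. The part of these cell types in the lower values of Irf8, Irf5 and the other members was not tested.

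The libraries also differed in depth and in ribosomal RNA. NTB-GMP gave 9486697 recovered reads and 4T1-GMP gave 26353075, and Rn45s, the ribosomal RNA precursor, took 17.0% and 6.98% of the library size. Without Rn45s every log2 ratio of RPKM, before the pseudocount, was lower by 0.16, all 7 measured members stayed below 0, and Irf7 at -1.07 became the fourth member lower by at least 2-fold.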

How the data were processed

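RNA-seq was measured in 2 libraries, 1 per group, grouped by the titles. The authors deposited RPKM from edgeR, normalized to gene length and library size. The submitters' processing notes name CASAVA 1.8.2, cutadapt 1.2.1, TopHat2 2.0.13, Picard 1.97, HTSeq 0.6.1, edgeR 3.12.1 and the build mm10, without roles. Whole reads were recovered from the RPKM, which were deposited at full precision, and 100% of the 14833 genes with reads came out whole within a relative tolerance of 1e-11, against 1.42% with library sizes raised by 4.72%. Common factors cancel, so recovered reads are lower bounds, which can widen the intervals. The intervals leave out PCR copies and the spread between mice or libraries, and can be too narrow for that reason. Effective library sizes were 10180365 and 30016263. Ratios used a pseudocount of 0.1 and understate the change of low genes. Ratio intervals are 95% Clopper-Pearson and level intervals exact Poisson. The recovery was tested on simulated data. The text names the members, the 3 highest and 3 lowest ratios per pathway list, and the 5 genes nearest to Irf8, and exceptions are stated. A few genes that this rule names are not reported here. Members and lists were chosen with earlier results of these data known. Coordinates are from GENCODE M21 (GRCm38, the build mm10) and promoters from RefSeq. Python 3.11.15, numpy 2.4.6, pandas 2.3.3, scipy 1.17.1 and matplotlib 3.10.9 were used. Alternatives were other pseudocounts (1 and 0.01), quantile normalization, library sizes without Rn45s, centring on the median, and no minimum or a minimum mean RPKM of 5.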

Additional observations from a re-analysis of the deposited data

How the results depend on the processing

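All 7 measured members kept their direction under each alternative run. Of 35 alternative values of the members' log2 ratios, 31 stayed within the counting interval and 4 left it. With library sizes taken without Rn45s, Irf1 was at -0.42, Irf3 at -0.28 and the summed level of the family at -1.08. With a pseudocount of 1, Irf8 was at -2.60 and Irf5 at -1.23. Without Irf8, the member with the highest level in NTB-GMP and the fifth by value in 4T1-GMP, the summed level was at -0.47. The number of members lower by at least 2-fold ranged from 2, with a pseudocount of 1 or a minimum mean RPKM of 5, to 4 without Rn45s. With a pseudocount of 1 Irf2 fell short of 2-fold, at -0.97. Among 42 alternative medians of the gene lists, 10 kept their sign but moved by more than 0.1, and 2 changed sign. Both were of the sensors, adaptors and kinases, at -0.11 without Rn45s and -0.00073 after centring on the median of all genes. Each of these alternatives lowers all genes by about the same amount, which is 0.16 without Rn45s and 0.05 after centring. No paired analysis was possible because NTB-GMP and 4T1-GMP had 1 library apiece, and no replicate could be left out. The control library was the shallower one and limits the precision of Irf7, at 31 and 46 reads, and Irf4 could not be compared at this depth.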
